A study of Homo sapiens with 11 samples.

Results

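The genes described are 10 members of the interleukin-7 signalling route, chosen by symbol: IL7R, IL2RG, JAK1, JAK2, JAK3, STAT5A, STAT5B, SOCS2, SOCS3 and CISH. All 10 were measured, among 19775 genes in all, and each is represented by the probe set with the highest mean over the 11 arrays. All arrays come from a single established human line, Reh, derived from a B-precursor leukaemia with the ETV6-RUNX1 fusion. The cells of every group, control included, had been infected with a virus to express miR-125b stably. The promoter of that construct is not stated. The cells were then transfected by Lipofectamine with precursor oligos. Control cells received 66 µM of scrambled miR-control, miR-99a cells 66 µM of miR-99a, and miR-100 cells 66 µM of miR-100. The combination received 33 µM of each. The oligos were added again after 72 h and the cells were harvested 48 h after that. There were 2 control arrays and 3 for each treatment. The labels say that cells were incubated in triplicate but not whether each array is a separate culture, so the p-values measure the spread between arrays, which may be technical. Cells without added miR-125b were not analysed here.

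Interleukin-7 is the cytokine that early B and T lymphocytes depend on for growth and survival. Its receptor joins the IL7R chain to IL2RG, the common gamma chain shared with other interleukin receptors. On binding, JAK1 on the IL7R chain and JAK3 on the gamma chain phosphorylate the transcription factors STAT5A and STAT5B, which enter the nucleus and switch on genes that include CISH and SOCS2. The CISH and SOCS proteins in turn restrain the receptor and its kinases. JAK2 serves related receptors, including that of the cytokine TSLP, which also uses the IL7R chain.

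The sequences of the expressed microRNAs are shown because they define the treatments. In each, the seed, bases 2 to 8 from the 5′ end, is in capitals (RefSeq, GRCh38.p14).
miR-99a-5p: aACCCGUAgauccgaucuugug
miR-100-5p: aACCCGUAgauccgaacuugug
miR-125b-5p: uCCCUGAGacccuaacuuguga
The miR-99a sequence lies at chr21:16539101-16539122 on the plus strand and miR-100 at chr11:122152275-122152296 on the minus strand. Both have the seed ACCCGUA and they differ at 1 base, U16A, counted from the 5′ end of miR-99a and outside the seed. The seed of miR-125b, CCCUGAG, is another one.

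Promoter windows of 250 bases before to 50 bases after a gene's start were available for 9 of the 10 genes, in 17 windows. SOCS2 had no window and was not searched. They were searched for TTCNNNGAA, the palindromic element that STAT5 binds, and for TGTGGT, the core bound by RUNX factors, on both strands. The STAT5 element was present in 1 of the 17 windows, that of CISH, which held it 4 times, and in 7.7% of 35116 windows of all genes. Only 7 of all windows held it at least 4 times. The CISH window is shown because CISH is the textbook STAT5 target of the set, with the matches in capitals (GRCh38.p14, chr3:50611725-50612024, minus strand).
CISH: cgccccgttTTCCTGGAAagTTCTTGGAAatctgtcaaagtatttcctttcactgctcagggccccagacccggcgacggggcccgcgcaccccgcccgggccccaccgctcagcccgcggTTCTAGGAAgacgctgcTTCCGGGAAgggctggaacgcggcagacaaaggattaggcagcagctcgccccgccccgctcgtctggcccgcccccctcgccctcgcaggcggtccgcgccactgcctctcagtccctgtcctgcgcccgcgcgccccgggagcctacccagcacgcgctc
The matches begin 241, 230, 129 and 112 bases before the start site. The RUNX core was also in 1 of the 17 windows, that of IL7R, 43 bases before the start, and in 13.1% of all windows. The IL7R window is shown because IL7R has the largest SD over the 11 arrays among the 10, 0.2 beside 0.19 for JAK1 (GRCh38.p14, chr5:35856641-35856940, plus strand).
IL7R: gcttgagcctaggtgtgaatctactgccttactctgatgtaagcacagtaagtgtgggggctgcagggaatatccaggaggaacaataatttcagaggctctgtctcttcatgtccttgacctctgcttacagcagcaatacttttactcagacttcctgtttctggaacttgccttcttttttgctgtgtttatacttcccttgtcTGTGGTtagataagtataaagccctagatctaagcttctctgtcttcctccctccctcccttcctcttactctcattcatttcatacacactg
A match describes the letters in the window and not a bound site.

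Values are the authors' deposited log2 expression, with a normalization that the labels leave unstated. The gene means had a median of 6.4, with 10% of genes below 5.239 and 10% above 9.681. Of 12 markers of B-cell precursors 11 lay above that median, from 8.74 for RAG2 to 13.09 for DNTT, and VPREB1 lay at 5.48. All 10 markers of T and NK cells lay below it, between 5.44 and 6.27, so they serve here as a guide to the level of genes of another lineage. Of 7 myeloid markers 3 lay above the median, MPO at 7.5 being the highest, and of 8 fibroblast and epithelial markers only COL1A1 did, at 7.07. The T and NK markers are thus a low guide. JAK2, CISH, STAT5A and IL2RG, with means of 6.48, 6.72, 7.06 and 7.15, also lay below MPO, so their level alone does not show expression. Many genes differed between replicate 3 and replicates 1 and 2 of the treatments, as counted below, and control has no replicate 3. The levels are therefore given by replicate number, and the comparisons with control also in replicates 1 and 2. Probe sets differ in affinity, so the log2 levels of different genes are not amounts that can be ranked.

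The IL7R probe set had a strong signal, at the 97.9th percentile of all gene means. Its level was 11.66 and 11.59 in the control arrays. With miR-99a it was 11.34, 11.4 and 11.87 in replicates 1, 2 and 3, with miR-100 it was 11.41, 11.3 and 11.86, and with both oligos it was 11.41, 11.51 and 11.72. All 6 treated arrays of replicates 1 and 2 thus lay below both control arrays, and all 3 of replicate 3 lay above both. Of all genes, 3.13% showed this order without overlap, and 1.63% showed the opposite order. IL7R was the only member of the 10 with either. Both shares include dim genes, and those among genes as bright as IL7R were not counted. In RNA from whole cultures, fewer cells of a type and less RNA per cell cannot be told apart. RefSeq places the gene at chr5:35856891-35879603 (GRCh38.p14, plus strand).

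The other receptor chain, IL2RG, differed the other way between replicates. Its level was 7.18 and 7.04 in control. With miR-99a it was 7.37, 7.42 and 7.02 in replicates 1 to 3, with miR-100 it was 7.19, 7.16 and 6.94, and with both it was 7.13, 7.1 and 7.06. The lowest array of each treatment was replicate 3, and the highest values overall were the first 2 miR-99a arrays. IL2RG is also high in T and NK cells. Of the 10 markers of those cells, 0 were called between replicates, beside 29.3% of all genes. All 10 are dim, with means of 5.44 to 6.27, so this count cannot bear on IL2RG, and the source of its difference was not tested. The mean level of those markers ranged from 5.68 to 5.76 in the control arrays, 5.74 to 5.81 in treated replicates 1 and 2, and 5.68 to 5.72 in treated replicate 3.

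JAK1, the kinase on the IL7R chain, was 8.85 and 9.03 in control. With miR-99a it was 8.73, 8.93 and 9.02 in replicates 1 to 3, with miR-100 8.54, 8.83 and 9.22, and with both 8.79, 8.87 and 9.08. Within each treatment replicate 3 was the highest array. JAK3, the partner kinase on the gamma chain, was 7.35 and 7.67 in control, 2 arrays that lay far apart. It was 7.71, 7.71 and 7.51 with miR-99a, 7.45, 7.61 and 7.8 with miR-100, and 7.68, 7.84 and 7.73 with both. All 3 combination arrays lay above both control arrays, which held in either direction for 20.5% of all genes. The margin was narrow, at 7.68 against 7.67. The second JAK3 probe set, a dim one, went the other way without overlap. It was 6.07 to 6.1 with both oligos against 6.19 and 6.15 in control. JAK2 was 6.69 and 6.4 in control and 6.41 to 6.56 in the 9 treated arrays, close to the middle of all gene means.

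The STAT5 genes are neighbours on chromosome 17, STAT5B at chr17:42199177-42288370 and STAT5A at chr17:42287439-42311943 (RefSeq, GRCh38.p14), so that their annotated ranges overlap at one end. STAT5A was 6.95 and 7.09 in control, with 7.1, 7.08 and 7.14 after miR-99a, 6.87, 7.15 and 7.26 after miR-100, and 6.98, 7.03 and 7.02 after both. Control and treated arrays overlapped in every treatment. STAT5B was 7.6 and 7.53 in control, with 7.44, 7.63 and 7.79 after miR-99a, 7.54, 7.59 and 7.87 after miR-100, and 7.44, 7.54 and 7.73 after both. Each replicate 3 array lay above every other array, control included. That order against control held upward in 18.1% of all genes, and the order against treated replicates 1 and 2 in 14.9%.

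Of the inhibitors, SOCS2 had a level of 7.55 and 7.65 in control. It was 7.62, 7.65 and 7.46 with miR-99a, 7.54, 7.56 and 7.61 with miR-100, and 7.42, 7.55 and 7.36 with both. The combination arrays all lay below or level with the lower control array to 2 decimals, and did not overlap with control in the unrounded values. SOCS3 was 6.23 and 6.21 in control and 6.12 to 6.34 over all 11 arrays. That is no higher than CD5, the brightest of the T-cell markers, at 6.15 to 6.35, so whether SOCS3 was expressed could not be read from its level. CISH was 6.71 and 6.73 in control, 6.64, 6.7 and 6.82 with miR-99a, 6.88, 6.72 and 6.69 with miR-100, and 6.61, 6.64 and 6.74 with both. Its arrays overlapped in every comparison, and its probe set is of a kind (suffix x) whose probes may also match other transcripts.

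The members whose groups did not overlap were counted for each comparison. The groups differ in size, so the shares of different comparisons cannot be set against each other. No member was free of overlap for all treated arrays against control, nor were many genes (2.91% in either direction, 1.31% upward and 1.6% downward). The same count was 0 of 10 for miR-99a (15.4% of all genes), 0 for miR-100 (13.4%) and 0 between miR-100 and miR-99a (4.66%). For the combination it was 2 of 10, JAK3 upward and SOCS2 downward, beside 20.5% of all genes, a share near that of the members. Treated replicates 1 and 2 were free of overlap with control in 1 of 10, IL7R, downward, against 16.2% of all genes in either direction, 5.28% upward and 10.9% downward. Treated replicate 3 was so in 2 of 10, IL7R and STAT5B, both upward, against 35.4% in either direction and 17.2% downward. Between replicate 3 and replicates 1 and 2 it was 4 of 10, IL7R, JAK1 and STAT5B upward and IL2RG downward, against 25.9% of all genes in either direction.

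**Figure D1:**
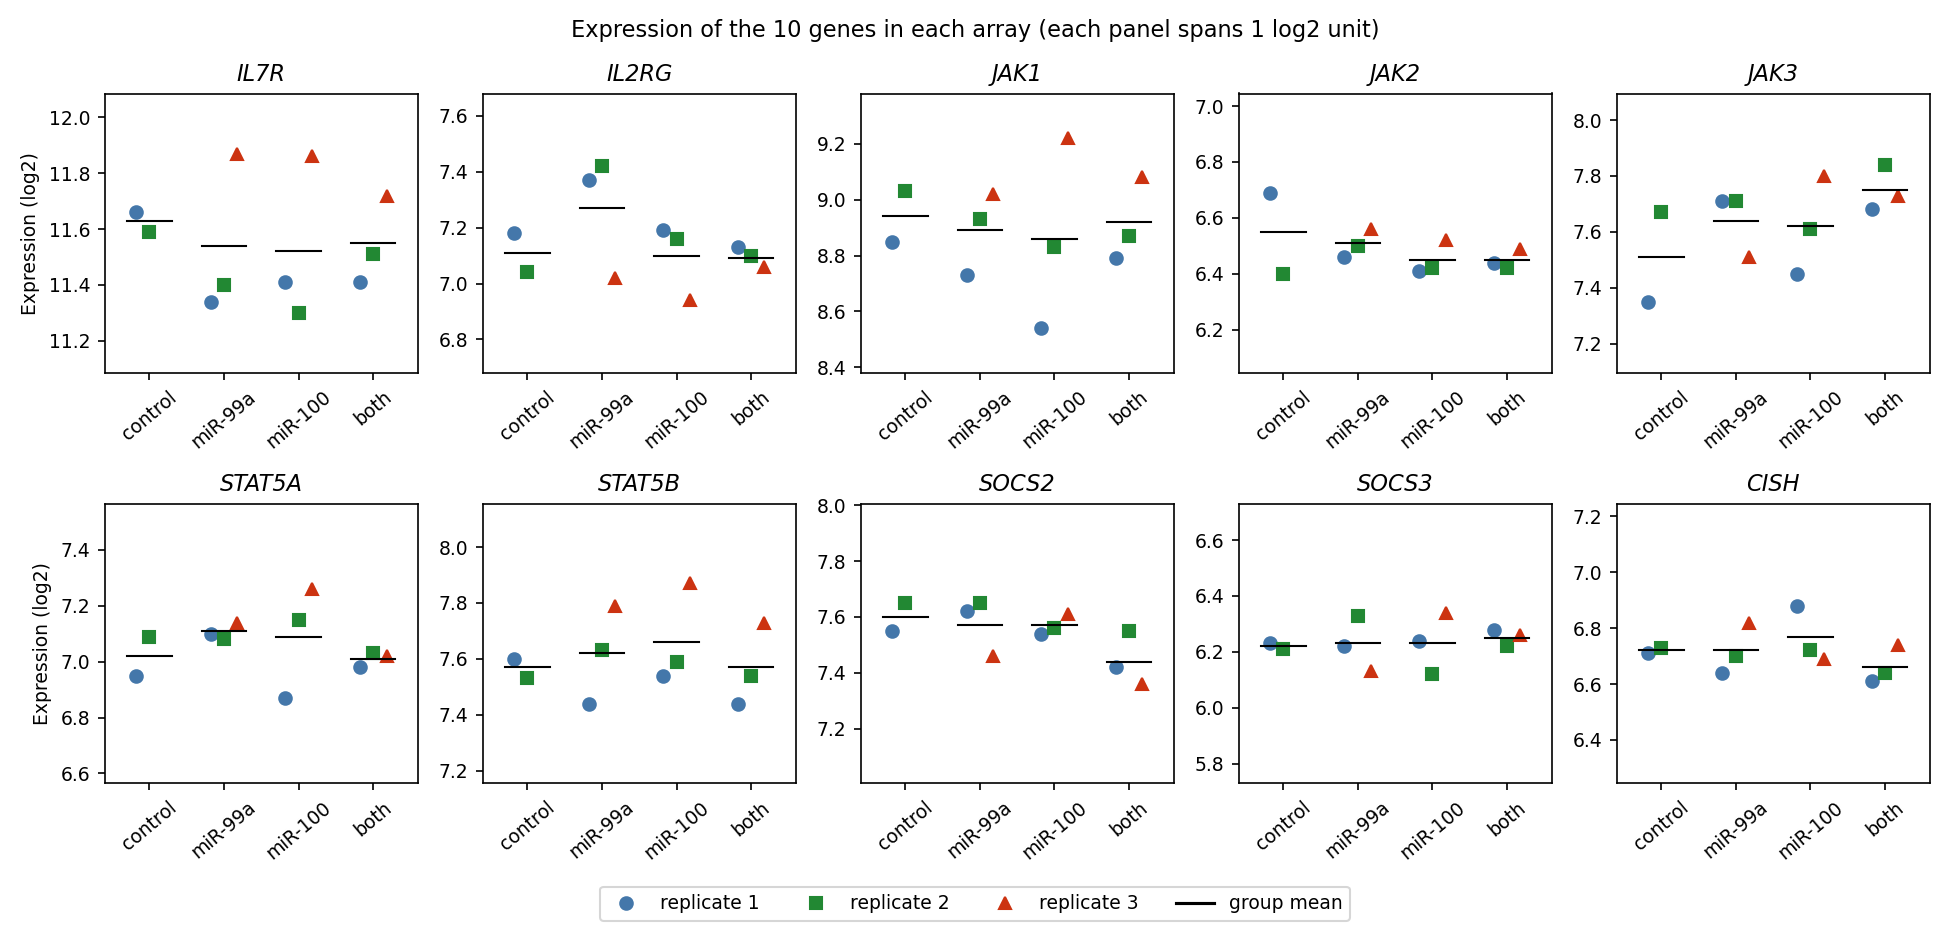
Log2 expression of the 10 genes (y axis, 1 log2 unit per panel) in the 4 groups (x axis), with a marker per array coded by replicate number and a line at the group mean (n = 2 in control, n = 3 in each treatment). IL7R replicate 3 arrays sit at 11.72 to 11.87, above control, while replicates 1 and 2 of the treatments sit at 11.3 to 11.51, below it.

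The first question was whether the oligos changed these genes. None of the 10 passed limma's test with miR-99a, miR-100, both oligos, or all treated arrays together against control, and none had an unadjusted p under 0.05 in any of these. In this fit of all arrays 0.0% of all genes were called in each of the 4 comparisons, although 198, 305, 724 and 489 genes had an unadjusted p under 0.05. In replicates 1 and 2 alone the genes called numbered 0, 0, 290 and 198, with no member among them. The comparisons share the same 2 control arrays, so their values are not independent of one another. The median log2 difference of the 10 members was 0.004, 0 and -0.018 with miR-99a, miR-100 and both, against -0.006, -0.008 and -0.004 over all genes.

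The differences from control were small but loosely bounded. For IL7R the log2 difference (± SE, 3 arrays against 2) was -0.09 ± 0.18 after miR-99a, -0.1 ± 0.18 after miR-100 and -0.08 ± 0.18 after the combination. The order of its group means, 11.63 in control, 11.55 with both, 11.54 with miR-99a and 11.52 with miR-100, separates no neighbours beyond their spread (SD 0.05, 0.16, 0.29 and 0.3). For all treated arrays together the 95% interval was -0.43 to 0.25. JAK3 had the largest mean difference of the members over all treated arrays, 0.16 ± 0.1, with an interval of -0.07 to 0.39, and 0.24 ± 0.12 with both oligos. Its other probe sets had -0.01, 0.1 and -0.05 over all treated arrays. The difference of the chosen probe set depended on the control array: without control replicate 1 the mean difference was 0.0, and without control replicate 2 it was 0.32. JAK2 likewise had 0.07 without control replicate 1 and -0.22 without control replicate 2. SOCS2 had -0.16 ± 0.08 with both oligos and -0.03 ± 0.08 with each single oligo. IL2RG had 0.16 ± 0.12 with miR-99a and -0.01 ± 0.12 with miR-100 and with both. JAK1, JAK2, STAT5A, STAT5B, SOCS3 and CISH had between -0.1 and 0.1 in each of the 3 treatments.

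The pooled values mix replicate 3 with the others, and no control array carries that number. In replicates 1 and 2 alone IL7R was lower in all 6 treated arrays than in both control arrays. Fitted on those 8 arrays, its log2 difference was -0.25 ± 0.08 for miR-99a, -0.27 ± 0.08 for miR-100, -0.16 ± 0.08 for the combination, and -0.23 ± 0.07 for the 3 treatments together (6 arrays against 2). The limma adjusted p of the last was 0.0737, with an unadjusted p of 0.00244, so it did not pass. In that fit 1.0% of all genes were called and none of the 10 members was. The 437 genes as bright as IL7R (mean between 11 and 12) had a median difference of -0.006 there, and 4.81% of them lay below IL7R. JAK1 had -0.16 ± 0.08 in that fit (adjusted p = 0.326), and its treated arrays overlapped with control. The median of the 2409 genes at its level was -0.092, and 28.3% of them lay below JAK1.

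For the remaining members replicates 1 and 2 gave little. JAK3 had 0.16 ± 0.08 (adjusted p = 0.307) and IL2RG 0.12 ± 0.07 (adjusted p = 0.379). IL2RG was higher mainly with miR-99a, at 0.29 ± 0.08 (adjusted p = 0.267). JAK2 had -0.1 ± 0.07 (adjusted p = 0.517). STAT5A, STAT5B, SOCS2, SOCS3 and CISH lay between -0.05 and 0.02.

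The second question was whether the treatments differed from each other. Between miR-100 and miR-99a, which share a seed, 0 of 10 members and 0.0% of all genes were called by limma, with 0 members and 194 genes at an unadjusted p under 0.05. The largest difference was that of IL2RG, -0.17 for miR-100 minus miR-99a (95% interval -0.41 to 0.06), and -0.22 in replicates 1 and 2 (adjusted p = 0.764). Between the combination and the single oligos at equal total dose, again 0 members and 0.0% of genes were called, with 0 members and 451 genes at an unadjusted p under 0.05. There SOCS2 had -0.13 (-0.27 to 0.01) and JAK3 0.12 (-0.08 to 0.33). In replicates 1 and 2 these were -0.11 and 0.14, and IL2RG had -0.17 (limma adjusted p = 0.719).

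The third comparison asks how far replicate 3 differed from replicates 1 and 2 within the treatments, since this spread sets the error of the others. IL7R, JAK1 and STAT5B were higher in replicate 3 and IL2RG was lower, so 4 of 10 members were called, 3 upward and 1 downward. In all genes 29.3% were called, 17.1% upward and 12.2% downward. The brighter genes are those whose mean reached the median, as that of every member but SOCS3 did. Fitted and adjusted on their own, 57.0% of them were called, the same 4 members included. The members' share does not exceed that of the brighter genes. The replicate number is a label only, and what distinguished the third set of arrays is not stated.

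IL7R was 11.4 ± 0.07 in treated replicates 1 and 2 (SD, n = 6) and 11.82 ± 0.08 in replicate 3 (SD, n = 3). The log2 difference was 0.42 ± 0.07 (SE, limma adjusted p = 1.59e-06), a fold of 1.338. By treatment it was 0.49 for miR-99a, 0.51 for miR-100 and 0.26 for the combination. Genes of its level went the other way, with a median of -0.184, and 96.3% of them lay below IL7R. The second IL7R probe set had the same difference, 0.42, and over the 11 arrays the 2 probe sets correlated at r = 0.948. That probe set was 11.06 and 10.91 in control, 10.6 to 10.84 in treated replicates 1 and 2, and 11.17 to 11.24 in replicate 3, which is the same order without overlap.

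JAK1 rose by 0.32 ± 0.07 on the log2 scale in replicate 3 (adjusted p = 0.000338), by 0.19, 0.53 and 0.25 with miR-99a, miR-100 and both. Without miR-100 replicate 3 it was 0.22 with an adjusted p of 0.0475. Averaged over its 5 probe sets JAK1 had 0.19 ± 0.05 and still passed (adjusted p = 0.0145). Its second probe set had 0.28, and the 3 dimmer ones 0.09 to 0.15. The 2409 genes at its level had a median of 0.137 here, and 84.0% of them lay below JAK1.

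STAT5B rose by 0.27 ± 0.07 (adjusted p = 0.0011), with 0.26, 0.31 and 0.24 in the 3 treatments. All 5 of its probe sets were higher in replicate 3, by 0.08 to 0.27, and their average had 0.16 ± 0.05 (adjusted p = 0.0186). STAT5A, its close homologue, had 0.1 ± 0.07 (adjusted p = 0.306). Whether the STAT5 genes differed from each other was not tested.

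IL2RG fell by 0.22 ± 0.07 in replicate 3 (adjusted p = 0.00748), and its treatments were uneven, at -0.38, -0.24 and -0.06 with miR-99a, miR-100 and both. Leaving out miR-99a replicate 3 ended the call, at -0.15 with an adjusted p of 0.213. IL2RG has a single probe set, so no other could be set beside it. The 2584 genes at its level had a median of 0.085, and 12.6% of them lay below IL2RG.

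JAK2, JAK3, STAT5A and the 3 inhibitors did not pass. JAK3 and SOCS3 had 0.01 ± 0.07 each, with opposite signs in the treatments, with -0.2, 0.27 and -0.03 for JAK3 and -0.15, 0.16 and 0.01 for SOCS3. JAK2 had 0.08 ± 0.06 and was higher in replicate 3 of every treatment, by 0.06 to 0.1. SOCS2 had -0.08 ± 0.07 and CISH 0.05 ± 0.07. The 95% interval of CISH, -0.08 to 0.19, and that of SOCS2, -0.21 to 0.05, leave room for small differences.

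**Figure D2:**
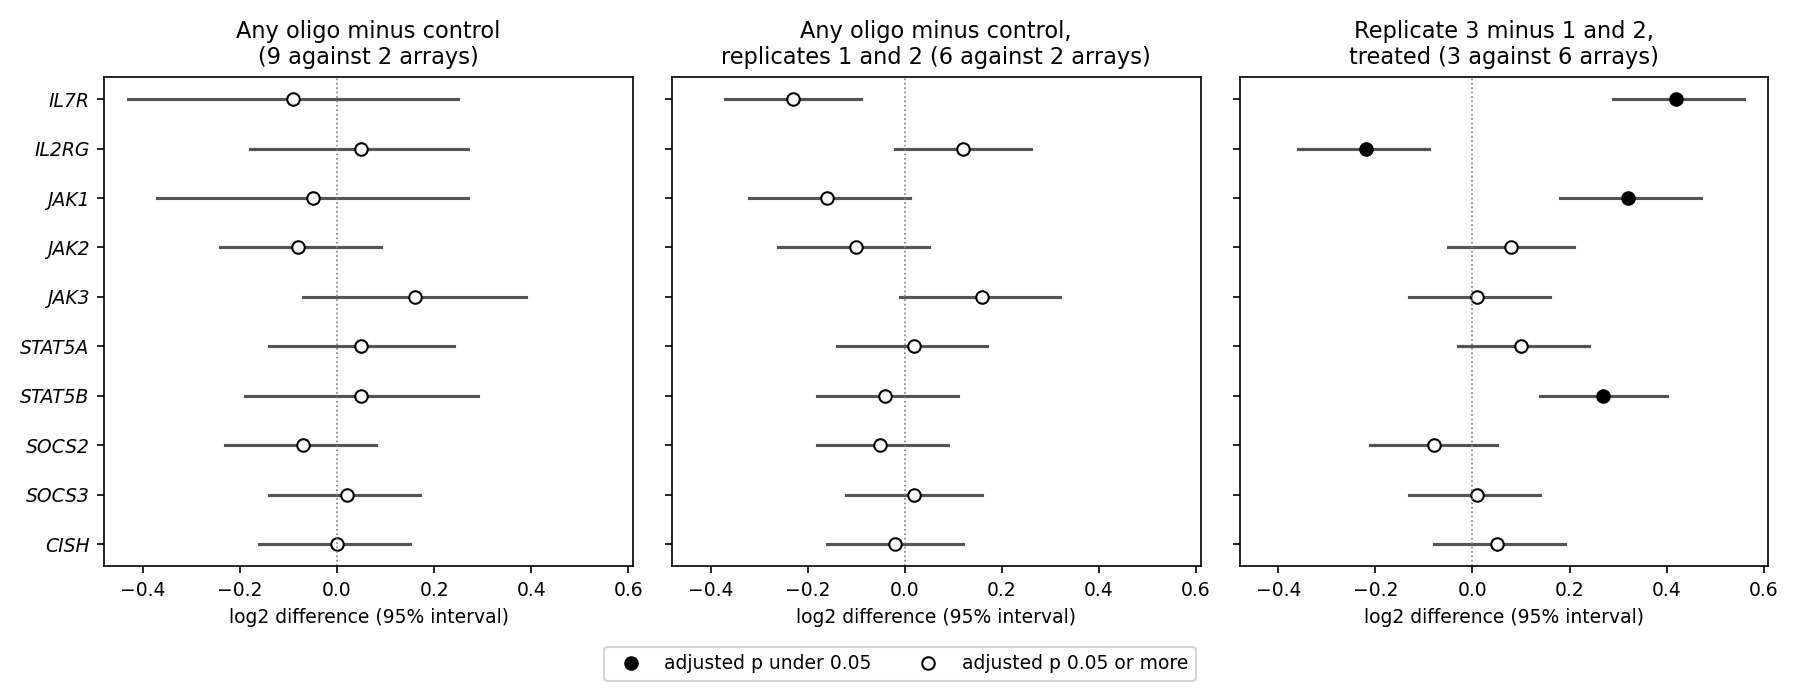
Log2 differences of the 10 genes (points) with 95% intervals from limma (lines) for any oligo against control on all arrays (left), on replicates 1 and 2 (middle), and for replicate 3 against replicates 1 and 2 of the treated arrays (right). Filled points passed an adjusted p of 0.05 and occur for IL7R, IL2RG, JAK1 and STAT5B on the right only, while IL7R lies at -0.09, -0.23 and 0.42 from left to right.

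The members' probe sets differed in how well they tracked each other. With the chosen probe set, the JAK1 probe sets correlated at 0.224 to 0.662 over the 11 arrays, those of STAT5B at 0.144 to 0.707 and those of JAK2 at 0.15 and 0.678. For SOCS3 they lay between -0.121 and 0.043, for SOCS2 at 0.085 and -0.537, and for CISH at 0.3 and 0.256. Those of JAK3 ranged from -0.251 to 0.776. The inhibitors thus had no further probe set that tracked the chosen one closely, whereas IL7R did. The chosen inhibitor probe sets hardly varied, with an SD of 0.07 to 0.09 beside 0.2 for IL7R. Their other probe sets were dim, with means of 5.05 to 5.86 apart from a CISH probe set at 6.62. These low correlations therefore cannot show how well the probe sets measure their genes. These correlations describe 11 arrays that share a normalization and carry no test.

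**Figure D3:**
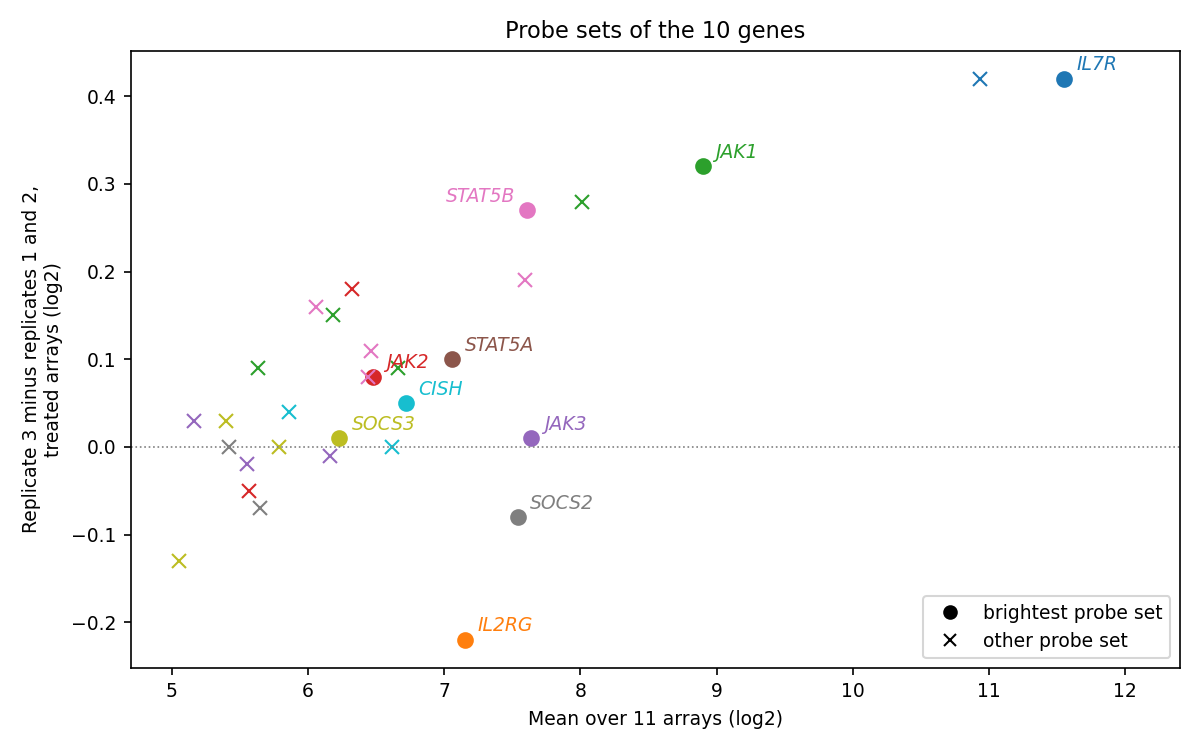
Difference between replicate 3 and replicates 1 and 2 in the treated arrays (y axis, log2) against mean level (x axis, log2) for every probe set of the 10 genes, with circles for the brightest probe set of a gene and crosses for its others. Both IL7R probe sets lie at 0.42, the STAT5B and JAK1 probe sets all lie above 0, and the probe sets with a mean under 6 lie between -0.13 and 0.09.

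Across the 11 arrays IL7R varied with STAT5B (r = 0.825), JAK1 (r = 0.755) and, in the opposite direction, IL2RG (r = -0.723). JAK1 varied with STAT5B at 0.762. Among 5552 genes with a mean of 8 or more, those most like IL7R were DHX15, a splicing helicase (r = 0.988), CCT2, a chaperonin subunit (0.985), CEP57, a centrosomal protein (0.983), TAF5, a subunit of the general transcription factor TFIID (0.981), and XRCC5, the larger Ku subunit of DNA repair (0.981). Each had the order of IL7R in its means. DHX15 was 11.43 in treated replicates 1 and 2, 11.63 in control and 11.77 in replicate 3, and XRCC5 was 11.15, 11.41 and 11.61. The 11 points share the replicate numbering and a normalization, and the part of these in the correlations was not tested.

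Of a wider list of 64 JAK-STAT genes outside the 10, 59 were measured. None was called by limma with any oligo against control, where 2 had an unadjusted p under 0.05: the interferon-gamma receptor chain IFNGR1 at -0.22 ± 0.08 and the inhibitor SOCS5 at -0.17 ± 0.07. The median of the list was -0.017, against -0.005 over all genes. In replicate 3, 24 of the 59 were called, 16 upward and 8 downward, beside 29.3% of all genes and 57.0% of the brighter genes. Of those 9888 brighter genes, fitted and adjusted on their own, 3375 were called upward and 2266 downward. The shares of all genes given below include dim genes, so for roles made up of brighter genes these counts are the nearer yardstick.

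Among ligands, IL15, a cytokine that signals through IL2RG, fell by 0.52 ± 0.07 on the log2 scale in replicate 3 (adjusted p = 2.83e-08), from 7.75 to 7.23. IL7 itself was 4.85 to 5.06 over all arrays and TSLP 4.73 to 4.98, both below the 5.239 that 10% of gene means lie under. IL2, another ligand whose receptor holds IL2RG, was 5.07 to 5.37, with 0.11 ± 0.07 against control over all treated arrays. Of 17 other receptor chains, 5 were called higher in replicate 3 and 0 lower, beside 17.1% and 12.2% of all genes, and 5 others were lower without passing. The largest rises were in FLT3, the receptor kinase of early progenitors (0.4 ± 0.07, adjusted p = 1.26e-05), and IL6ST, the shared chain of interleukin-6 receptors (0.31 ± 0.07). CRLF2, the partner of IL7R in the TSLP receptor and overexpressed in some B-precursor leukaemias, was 5.71 to 5.98, within the range of the T-cell markers. IL10RB rose by 0.23 ± 0.07.

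Of the 4 other kinases and STATs measured, TYK2 rose by 0.27 ± 0.07 (adjusted p = 0.00103) and STAT6 by 0.19 ± 0.07 (adjusted p = 0.0285). Upward calls made up 17.1% of all genes, and 3375 of the 9888 brighter genes. STAT3 had -0.04 and STAT4 0. Against control, STAT3, STAT4, TYK2 and STAT6 had 0.1, 0.13, 0.1 and 0.09 over all treated arrays, none of which passed.

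Of 15 other inhibitors 5 were called higher in replicate 3 and 0 lower, beside 17.1% and 12.2% of all genes, with a median of 0.123. All of them but SOCS1 lay above the median of gene means. Of the 9888 brighter genes 3375 were called higher, a share near that of the inhibitors, and 2266 lower. The other 10 included 3 that were lower without passing. The phosphatase gene PTPRC, which encodes CD45 and acts on JAK kinases, rose by 0.56 ± 0.07 (adjusted p = 2.15e-09), from 10.43 to 10.99. PTPN2, another phosphatase of JAK1 and JAK3, rose by 0.34 ± 0.07 (adjusted p = 6.61e-05). SOCS5 and SOCS6 had 0.01 and 0.13 and did not pass. Of 7 adaptors 3 rose and 2 fell, with PIK3R1, the regulatory subunit of phosphoinositide 3-kinase, at 0.28 ± 0.08, STAM at 0.22 ± 0.07 and SOS1 at 0.21 ± 0.07 upward, and SHC1 at -0.32 ± 0.07 downward.

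Of the 10 listed STAT5 target genes 5 were called lower in replicate 3 and 1 higher, beside 12.2% and 17.1% of all genes, with a median of -0.146 against 0.001 over all genes. Most of the targets are brighter genes, and of the 9888 brighter genes 2266 were called lower and 3375 higher. Bright genes of any kind had negative medians here, -0.049 at a mean of 10 to 11 and -0.184 at 11 to 12, levels at which several of the 10 lie. Of the genes called lower, BCL2 and CCND3 lie there. PIM1 and PIM2 lie at 7 to 8 and BCL2L1 at 8 to 9, where the medians were positive, 0.085 and 0.137. The part of level in these differences was not tested. BCL2L1, which encodes the survival protein BCL-XL, fell by 0.4 ± 0.07 (adjusted p = 5.92e-06), from 8.46 to 8.05. The kinase gene PIM2 fell by 0.37 ± 0.07 (adjusted p = 2.11e-05), from 7.21 to 6.84, and BCL2 fell by 0.18 ± 0.07 (adjusted p = 0.0387). CCND3 had -0.36 ± 0.07 (adjusted p = 5.72e-05) and PIM1 -0.23 ± 0.07 (adjusted p = 0.00672). The gene called higher was BCL6, a repressor that STAT5 is known to switch off, at 0.19 ± 0.07 (adjusted p = 0.0382). The STAT5 targets among the members, CISH and SOCS2, did not pass in replicate 3. Whether STAT5 activity differed was not tested. OSM, MCL1, MYC and CCND2 had -0.08, -0.11, -0.03 and -0.01 and did not pass. BCL2L1 had 0.01 ± 0.16 and PIM2 0 ± 0.14 against control over all treated arrays.

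**Figure D4:**
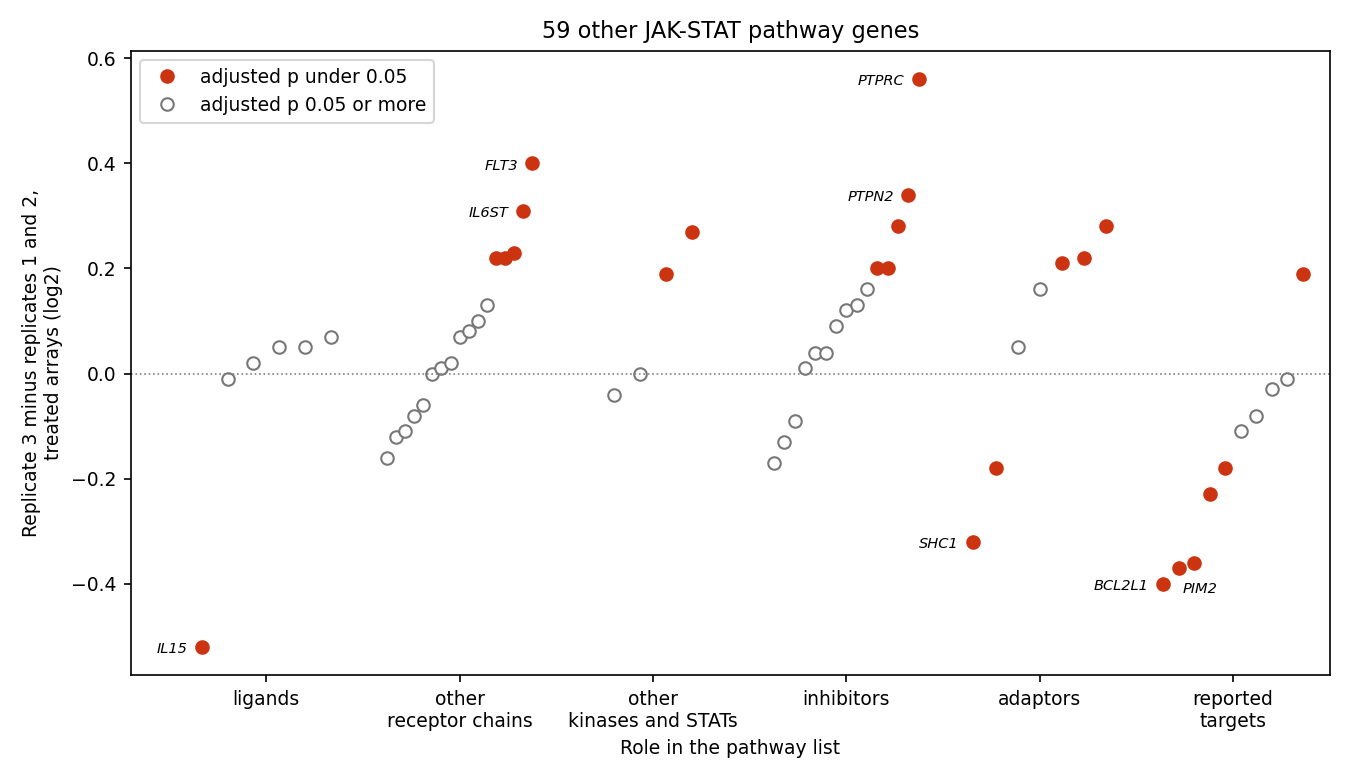
Difference between replicate 3 and replicates 1 and 2 in the treated arrays (y axis, log2) for 59 other JAK-STAT genes, a point each, sorted within their role (x axis). Filled points passed an adjusted p of 0.05: IL15 at -0.52 is the lowest and PTPRC at 0.56 the highest. Of 15 inhibitors 5 and of 17 receptor chains 5 passed upward and 0 of either downward, and 5 of 10 reported targets passed downward. Of all genes 17.1% passed upward and 12.2% downward, and of the 9888 brighter genes 3375 and 2266.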

How the data were processed

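RNA of 11 Reh samples was hybridized to Affymetrix arrays after one-cycle labelling, per the labels' protocols. The authors deposited log2 values, read as such from their range of 4.398 to 14.839. How they were summarised, background-corrected and normalized is not stated there. Array medians lay between 5.95 and 5.984. The number of arrays limits the precision.

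Of 54675 probe sets, 41091 with a single gene symbol were kept. Symbols were updated through gene identifiers in the RefSeq table (41037 matched). The brightest probe set stood for each gene, and no dim gene was left out. Group means were fitted on 11 arrays with limma 3.58.1 in R 4.3.3, adjusted by Benjamini-Hochberg over 19775 genes and called at 0.05. Replicate 3 was tested in the 9 treated arrays with treatment as a term. The fit was tested on simulated data.

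The members and lists were chosen with earlier results of these data known. All members and their probe sets are named, with the 5 genes of highest Pearson r to IL7R among those with a mean of 8 or more. From the pathway list, the 2 smallest p-values per role, with any oligo and in replicate 3, were named. IL7, CRLF2, SOCS1, BCL6, CCND3, PIM1, MCL1, MYC and CCND2 fall outside this rule and were named after their values were seen. Promoter and microRNA sequences are RefSeq's (GRCh38.p14). After group means were removed, same-numbered arrays of the treatments correlated in 9 of 9 pairs (r 0.168 to 0.816). With control, the correlations were -0.152 to 0.438. Arrays with different numbers were not compared, and the difference of replicate 3 enters these values. They therefore cannot decide whether the numbers pair arrays, within the treatments or with control.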

Additional observations from a re-analysis of the deposited data

How the results depend on the processing

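Alternatives were quantile normalization, the mean of all probe sets, genes at or above the median level, a variance trend, the replicate block, replicate 3 as a term, replicates 1 and 2 only, and each array left out. Quantile normalization within replicates 1 and 2 was chosen after seeing the data. In all of them 0 members were called against control or between treatments. The replicate 3 comparison was run under the first 4 and with each treated array left out, with 4 members called, or 3 without miR-99a replicate 3. With the replicate block IL7R had -0.23 for any oligo (adjusted p = 0.0759), with unadjusted p-values from 0.00327 to 0.0149 over the 4 comparisons with control in limma, and no member call changed. Uncalled differences from control changed sign in 22 to 25 of 189 refits per comparison. Quantile normalization took the IL7R difference in replicate 3 from 0.42 to 0.62. In replicates 1 and 2 it left IL7R at -0.23 (adjusted p = 0.0795). Over all genes, 0 were called for any oligo, against 507 with the replicate block, 24 with replicate 3 as a term, 198 in replicates 1 and 2 and 315 there after quantile normalization. For both oligos these counts were 0, 863, 443, 290 and 154, for miR-99a 0, 5, 0, 0 and 22, and for miR-100 0, 7, 0, 0 and 0. Between treatments, counts of 0 became 1 with the replicate block in both comparisons and 1 in replicates 1 and 2 for miR-100 against miR-99a. The cause of these changes was not tested.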
